A study of Homo sapiens with 32 samples.

Results

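This account covers 8 genes: the DNA repair genes DDB2, XPC, RRM2B, POLH and PCNA, which are known p53 targets, and the stress genes GADD45A, GADD45B and GADD45G. They were chosen by name, as the repair genes under p53 control together with the whole GADD45 family, and make up 8 of the 35587 gene symbols measured. Poly-A RNA was sequenced from U2OS cells, a human osteosarcoma line, in 32 libraries. There were 4 genotypes, of which the parental cells carried the wild-type alleles (WT). CRISPR-Cas9 editing gave the others: a p53 null (KO), and A347D on 1 allele (HET, p53 +/A347D) or on both (HOM, p53 A347D/A347D). Each genotype received DMSO, the solvent control, or 20 µM etoposide (ETO) for 24 h, with 4 separate plates in each of the 8 groups. The labels do not give the number of lines behind each edited genotype, so genotype, editing and line cannot be told apart. Each p-value measures only the spread between plates.

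Etoposide blocks resealing of the DNA cuts that topoisomerase II makes, after which p53 accumulates and switches on genes for arrest, death and repair. p53 normally binds its sites as a tetramer, and A347D changes the domain that joins the subunits; the title of the series calls the mutant dimer-forming. The repair genes under p53 control act at different steps. DDB2 and XPC find bulky lesions for nucleotide excision repair, POLH copies past lesions, PCNA is the clamp that holds polymerases on DNA, and RRM2B is a small subunit of ribonucleotide reductase, which makes deoxynucleotides. The GADD45 proteins are small acidic stress proteins that bind PCNA, CDK1 and the MAP kinase kinase kinase MAP3K4.

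Normalized counts are read counts divided by the authors' library size factors. Recovered totals were 18.2 to 24.2 M counts in 31 libraries and 8.05 M in replicate 2 of HET with etoposide. Replicates 2 to 4 of HOM in DMSO stood apart. Mitochondrially encoded genes took 20.7% to 21.9% of their counts, against 7.87% to 15.2% in the 29 other libraries. Their normalized counts also summed to 32.02 to 47.28 M, against 16.17 to 24.68 M in the 29 other libraries. Each recovered count became 1.494, 1.752 and 2.124 normalized counts in replicates 2, 3 and 4, and 1.048 in replicate 1. Levels and responses that rest on HOM in DMSO depend on this scaling, and results with total-count scaling are given at the end. Results that rest on HOM in DMSO are therefore given with and without replicates 2 to 4. Without those replicates HOM in DMSO is 1 library, replicate 1. The spread in such fits comes from the other groups, so their SEs and p-values measure no spread between HOM DMSO plates. Of 8 osteosarcoma line markers, 6 or 7 reached 10 normalized counts in every library of each group, with COL1A2 and TWIST1 low. Of 8 epithelial markers, 6 or 7 did so in each group except HOM in DMSO, which had 4. Among them the keratins KRT8 and KRT18 had the highest medians, 5701 and 7949. Of 8 blood cell markers, 1 (CD68) did so in every group, and CD3E and HBB had medians at or below 1.26. The summed level of the blood markers was 53.4 to 495 with DMSO and 211 to 573 with etoposide, and its part in the results was not tested.

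The test took genes that reached 10 normalized counts in 4 or more libraries, which kept 16824 genes and 7 of the 8 members. A gene counted as higher or lower when limma's Benjamini-Hochberg adjusted p was under 0.05 and the fold change was at least 1.5. In WT cells all 7 tested members rose with etoposide, against 20.1% of all tested genes. In HET cells 6 of 7 rose, against 17.5% of all tested genes, and GADD45B was the exception. In KO cells 3 rose (RRM2B, PCNA and GADD45A; 18.1% of all genes), and in HOM cells 4 rose (XPC, RRM2B, PCNA and GADD45A; 37.2% of all genes). Without replicates 2 to 4 of HOM in DMSO, 3 rose there, since XPC no longer passed, against 20.9% of all genes. By limma 0 members fell with etoposide in any genotype, also at an unadjusted p under 0.05, where 14.9% of all tested genes fell in WT, 14.5% in KO, 12.7% in HET and 28.5% in HOM. GADD45G had 73 recovered counts over all 32 libraries and was not tested.

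**Figure D1:**
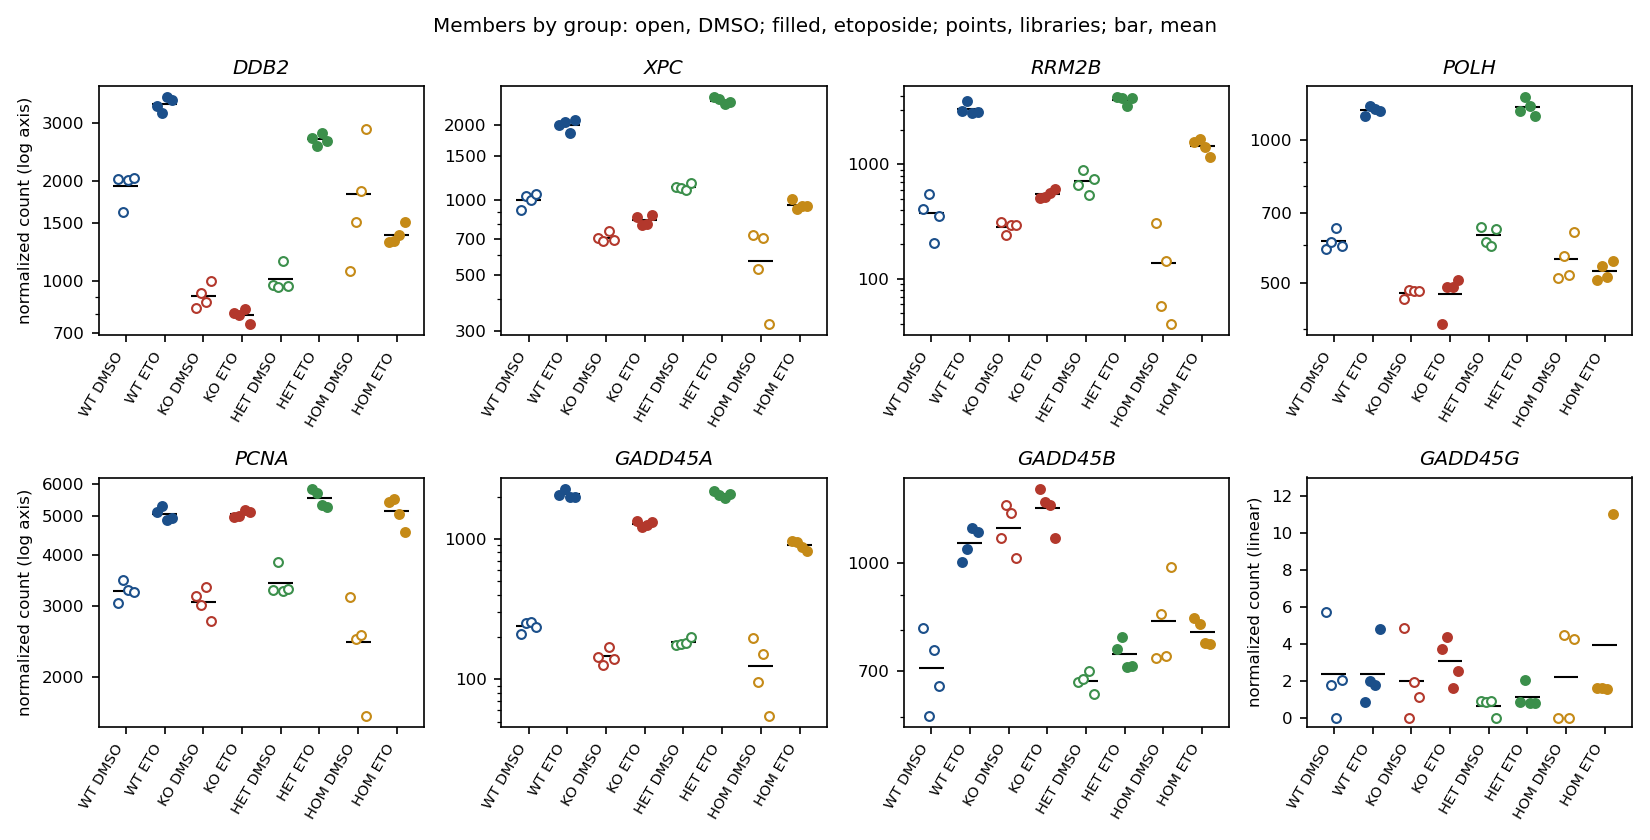
Normalized counts of the 8 genes in every library, by genotype and treatment; points are libraries, bars are group means, and the axis is logarithmic except for GADD45G. DDB2, XPC, RRM2B and POLH stand high with etoposide in WT and HET, RRM2B, PCNA and GADD45A are raised with etoposide in all 4 genotypes, and GADD45G stays at or below 11.1.

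DDB2 encodes the damage-binding subunit that recognizes ultraviolet photoproducts in chromatin. It lies on the plus strand at chr11:47214465-47239240 (GRCh38). RefSeq (GRCh38.p14) windows of 250 bases before to 50 bases after each annotated start were searched on both strands for exact matches to the p53 half-site consensus and to a full site, made of 2 half-sites with at most 13 bases between. Windows were found for 6 of the 8 members. DDB2's second start held the only full site among them, at chr11:47214979-47214999 in an exon outside the coding sequence. It is shown because a full site occurred in 10 of 35116 windows, or 0.0285%. The capitals mark the 2 half-sites.
DDB2 second start: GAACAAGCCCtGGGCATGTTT

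DDB2 differed between genotypes already without damage. In WT the libraries held 2036, 1618, 2024 and 2051 normalized counts with DMSO and 3373, 3202, 3577 and 3520 with etoposide. In KO they held 829, 926, 868 and 1002 with DMSO and 803, 794, 827 and 745 with etoposide. All WT libraries lay above all KO libraries, and in KO the etoposide libraries lay just below the DMSO ones. HET held 978, 960, 1150 and 972 with DMSO and 2692, 2557, 2785 and 2653 with etoposide, so it started near KO and rose to between both WT groups. In HOM the DMSO libraries spread from 1078 through 1509 and 1864 to 2882, and the etoposide libraries held 1311, 1322, 1384 and 1511. These HOM groups overlapped, and the DMSO values carry the scaling given above.

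The WT rise of DDB2 was 0.83 ± 0.16 on the log2 scale (SE, n = 4 per group, limma adjusted p = 8.33e-05) and the HET rise 1.40 ± 0.16 (adjusted p = 2.50e-08). In KO the change was -0.19 ± 0.16 (limma adjusted p = 0.33). The KO response lay below the WT response by a log2 difference of -1.02 ± 0.22 (limma adjusted p = 0.0014). In DMSO, DDB2 was lower than in WT in both KO (-1.09 ± 0.16) and HET (-0.93 ± 0.16; limma adjusted p = 9.61e-06 and 2.86e-05). The HET response was 0.57 above the WT response, with a 95% interval from 0.11 to 1.03 that did not pass after adjustment (limma adjusted p = 0.17). HOM in DMSO was -0.16 from WT with all libraries and -0.83 (limma adjusted p = 4.54e-05) with replicate 1 alone, whose 1078 normalized counts lay below every WT library. The HOM response changed from -0.32 to 0.36 when replicates 2 to 4 in DMSO were left out, and passed in neither case.

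XPC encodes the lesion sensor that opens the DNA for global genome repair, and lies on the minus strand at chr3:14145147-14178783. In WT it had 911, 1035, 1002 and 1055 normalized counts with DMSO and 2001, 2060, 1861 and 2102 with etoposide. In HET the values were 1132, 1114, 1096 and 1172 with DMSO and 2582, 2540, 2434 and 2467 with etoposide, the highest XPC levels of any group. KO held 706, 683, 753 and 689 with DMSO and 852, 796, 801 and 873 with etoposide, so the KO groups did not overlap but stayed below every WT library. HOM held 727, 529, 704 and 319 with DMSO and 1006, 924, 947 and 945 with etoposide, a level overlapping that of untreated WT.

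XPC rose from a mean of 1001 to 2006 normalized counts in WT, a difference whose 95% interval ran from 0.71 to 1.29 on the log2 scale (limma adjusted p = 9.92e-07). In HET it rose by 1.15 ± 0.14 on that scale (limma adjusted p = 1.09e-07). In KO the change was 0.23 ± 0.14 (limma adjusted p = 0.18), and the KO response was -0.77 ± 0.20 from that of WT (adjusted p = 0.006). In HOM the rise of 0.82 passed with all libraries and became 0.39 ± 0.09, below 1.5-fold, without replicates 2 to 4 in DMSO. It was 0.56, also below 1.5-fold, without replicate 4 alone. With replicates 2 to 4 left out, the HOM response was below the WT response by -0.61 ± 0.11 (limma adjusted p = 1.23e-04), against -0.19 with all libraries. XPC's window held 1 match to E2F-type letters (TTTCCCGC or TTTGGCGC, either strand), which 2.27% of all windows hold. It is shown for comparison with PCNA, within the stretch chr3:14178792-14178851, outside the gene's transcripts and on its own strand. Capitals mark the match, 241 bases before the start.
XPC start: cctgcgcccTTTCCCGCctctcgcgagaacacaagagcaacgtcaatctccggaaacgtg

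POLH encodes DNA polymerase eta, which copies past lesions that stop the replicative polymerases. It lies on the plus strand at chr6:43576150-43615660, and its window held no exact match to the letters searched, which says only that they are not in this window. WT libraries held 589, 611, 651 and 598 normalized counts with DMSO and 1123, 1177, 1165 and 1152 with etoposide. HET libraries held 657, 611, 598 and 650 with DMSO and 1153, 1230, 1178 and 1123 with etoposide, which overlapped WT under both treatments. KO libraries held 462, 483, 481 and 480 with DMSO and 409, 491, 490 and 507 with etoposide. The KO treatments overlapped, and all 8 KO libraries lay below all 8 WT libraries. HOM libraries held 512, 571, 520 and 639 with DMSO and 506, 542, 515 and 556 with etoposide, again overlapping.

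The POLH rise was 0.92 ± 0.08 on the log2 scale in WT and 0.90 ± 0.08 in HET (limma adjusted p = 5.29e-11 and 9.05e-11). In KO it was -0.01 ± 0.08 and in HOM -0.08 ± 0.08 (limma adjusted p = 0.91 and 0.37). The response was smaller than in WT by a log2 difference of -0.93 ± 0.11 in KO and -0.99 ± 0.11 in HOM (limma adjusted p = 2.23e-07 and 3.67e-08). The HOM difference was -0.87 without replicates 2 to 4 in DMSO, and it was not called with total-count scaling. HET and WT differed by -0.02, with a 95% interval from -0.24 to 0.20. POLH overlaps POLH-AS1 and GTPBP2 on the other strand, DDB2 overlaps AC018410.2, and XPC overlaps LSM3, AC090004.1 and AC093495.1. The strand used in counting is not given in the sources used here.

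PCNA encodes the sliding clamp that anchors polymerases and repair enzymes on DNA, and lies on the minus strand at chr20:5114953-5126626. It rose in all 4 genotypes. WT libraries held 3058, 3479, 3289 and 3248 normalized counts with DMSO and 5120, 5277, 4874 and 4943 with etoposide. KO libraries held 3182, 3022, 3337 and 2756 with DMSO and 4974, 5002, 5169 and 5116 with etoposide. Both WT groups overlapped their KO counterparts, and neither genotype's treatments overlapped. HET ranged from 3262 to 3841 with DMSO and from 5248 to 5830 with etoposide, and HOM from 1612 to 3163 and from 4563 to 5510.

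The PCNA rise was 0.63 ± 0.12 on the log2 scale in WT, 0.72 ± 0.12 in KO and 0.69 ± 0.12 in HET (limma adjusted p = 6.64e-05, 1.27e-05 and 2.03e-05). In HOM it was 1.10 ± 0.12, and 0.70 ± 0.11 without replicates 2 to 4 in DMSO (limma adjusted p = 4.08e-09 and 1.01e-05). The KO and WT responses differed by 0.09, with a 95% interval from -0.25 to 0.44, and with etoposide KO and WT differed by 0.00 (95% interval -0.24 to 0.25). PCNA has 2 annotated starts. The first held an E2F-type match 59 bases before it, outside the gene's transcripts and within the printed stretch chr20:5126648-5126707. The second held 1 p53 half-site 226 bases before it, in an intron and within chr20:5120149-5120208 (6.63% of all windows hold a half-site). Both are shown on the gene's strand, since PCNA rose in all 4 genotypes and its levels in KO and WT overlapped under both treatments. Whether either match bears on these levels was not tested. Capitals mark the matches.
PCNA first start: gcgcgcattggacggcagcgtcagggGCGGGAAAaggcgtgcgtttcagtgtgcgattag
PCNA second start: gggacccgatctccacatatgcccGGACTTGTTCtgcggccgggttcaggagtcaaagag

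RRM2B encodes the ribonucleotide reductase subunit that serves repair outside S phase, and lies on the minus strand at chr8:102204502-102239118. Its WT libraries held 406, 555, 206 and 353 normalized counts with DMSO and 2949, 3601, 2816 and 2852 with etoposide. HET libraries held 663, 893, 535 and 753 with DMSO and 3858, 3816, 3256 and 3786 with etoposide. KO libraries held 313, 240, 294 and 295 with DMSO and 512, 524, 567 and 610 with etoposide. The KO treatments did not overlap, but the highest KO library lay below the lowest etoposide library of any other genotype. HOM libraries held 308, 58.2, 144 and 40.4 with DMSO and 1565, 1668, 1423 and 1151 with etoposide, between KO and WT and overlapping neither.

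The RRM2B rise was 3.08 ± 0.35 on the log2 scale in WT, 2.39 ± 0.35 in HET and 0.96 ± 0.35 in KO (limma adjusted p = 2.55e-08, 2.25e-06 and 0.028). The KO call was lost without KO replicate 2 in DMSO (0.87) or KO replicate 3 or 4 with etoposide (0.94 and 0.91). The KO response was below the WT response by a log2 difference of -2.13 ± 0.50 (limma adjusted p = 0.0026). In HOM the rise was 3.81 ± 0.35 with all libraries and 2.22 ± 0.30 against DMSO replicate 1 alone (limma adjusted p = 2.66e-10 and 9.14e-07). The HOM response exceeded the KO response by 2.86 with all libraries. This became 1.26 ± 0.35 (limma adjusted p = 0.059) without replicates 2 to 4 in DMSO. In DMSO, RRM2B was 0.96 ± 0.35 higher in HET than in WT (limma adjusted p = 0.027), although the library values overlapped; this was 0.70 and not called without WT replicate 3, and was also lost without WT replicate 4 or HET replicate 2 or 4.

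RRM2B shares its role with RRM2, the small subunit used in S phase, which moved the other way in WT. RRM2 fell by 1.14 ± 0.07 on the log2 scale in WT and by 0.59 ± 0.07 in HET with etoposide (limma adjusted p = 2.99e-13 and 1.57e-07), and was 0.23 ± 0.07 in KO, below 1.5-fold. Per kilobase of principal transcript, the RRM2B level was 0.0493 of the RRM2 level in untreated WT (mean of 4 libraries, SD 0.0202) and 0.862 with etoposide (SD 0.0783). The 2 transcripts thus came close to equal levels in treated WT cells, with single libraries at 0.780 to 0.955. In HET the ratio went from 0.0708 to 0.549, and in HOM from 0.0135 (single libraries 0.00325 to 0.0329, the highest being replicate 1) to 0.170. In KO it went from 0.0278 (SD 0.0033) to 0.0458 (SD 0.00317), and its highest treated library, 0.04995, lay below the lowest treated library of HOM, 0.138. This ratio is taken within a library and does not depend on the library scaling.

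**Figure D2:**
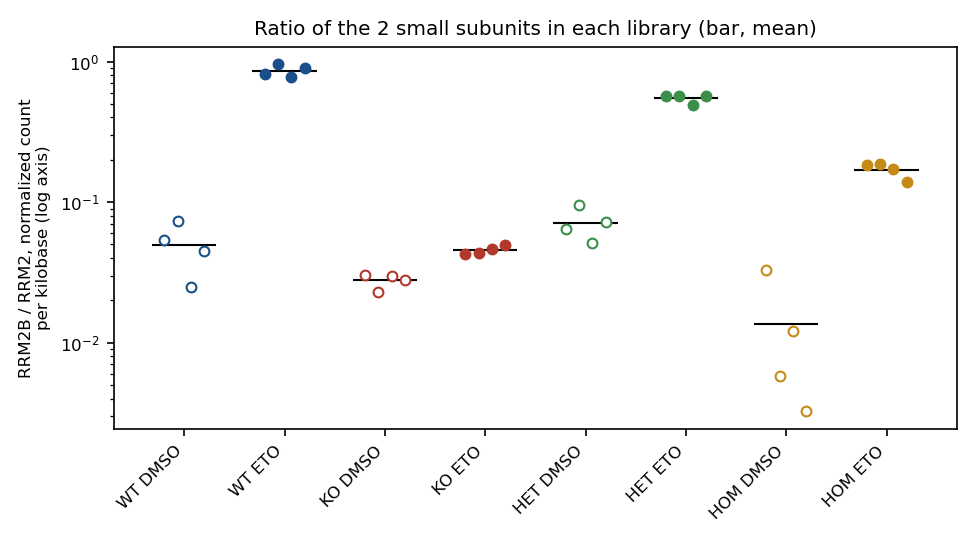
Ratio of RRM2B to RRM2 in every library, each as normalized count per kilobase of principal transcript, on a logarithmic axis; points are libraries and bars are group means. The 4 WT libraries with etoposide sit between 0.780 and 0.955, and the 4 KO libraries with etoposide between 0.0430 and 0.04995.

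GADD45A, the family member with an intronic p53 site known from earlier work, lies on the plus strand at chr1:67685061-67688338. It rose in all 4 genotypes, to different final levels. WT libraries held 211, 252, 255 and 236 normalized counts with DMSO and 2058, 2269, 1998 and 1972 with etoposide. KO libraries held 145, 127, 170 and 140 with DMSO and 1346, 1209, 1253 and 1308 with etoposide. KO lay below WT under both treatments with no overlap. HET libraries held 174, 177, 180 and 200 with DMSO and 2180, 2067, 1938 and 2093 with etoposide, overlapping treated WT. HOM libraries held 198, 95.6, 152 and 55.2 with DMSO and 967, 955, 879 and 813 with etoposide, the lowest treated group.

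The GADD45A rise was 3.12 ± 0.20 on the log2 scale in WT, 3.13 ± 0.20 in KO and 3.49 ± 0.20 in HET (limma adjusted p = 3.01e-13, 4.99e-13 and 2.41e-14). The KO and WT responses differed by 0.01, with a 95% interval from -0.58 to 0.61. In KO the level was -0.71 ± 0.20 from WT with DMSO and -0.70 ± 0.20 with etoposide (limma adjusted p = 0.018 and 0.0073). The DMSO call was lost without KO replicate 2 (-0.65), and both were lost with total-count scaling (-0.71 and -0.62). In HOM the rise was 2.99 ± 0.20 with all libraries and 2.18 ± 0.13 without replicates 2 to 4 in DMSO (limma adjusted p = 5.57e-13 and 5.25e-13). Without them the HOM response was below that of WT by -0.94 ± 0.15 and below that of KO by -0.95 ± 0.15 (limma adjusted p = 5.09e-05 and 7.12e-04), against -0.13 and -0.14 with all libraries.

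GADD45B, on the plus strand at chr19:2476122-2478259, is known as an immediate stress and cytokine response gene. WT libraries held 805, 603, 750 and 666 normalized counts with DMSO and 1002, 1048, 1121 and 1106 with etoposide. KO libraries held 1087, 1211, 1180 and 1016 with DMSO and 1277, 1221, 1211 and 1085 with etoposide, so untreated KO overlapped treated WT. GADD45B was the only tested member higher in KO than in WT with DMSO, by 0.67 ± 0.09 on the log2 scale (limma adjusted p = 4.27e-06). HET ranged from 649 to 783 and HOM from 730 to 985 over both treatments. The WT rise was 0.60 ± 0.09 (limma adjusted p = 3.99e-06), just past 1.5-fold, and was not called without WT replicate 2 or 4 in DMSO (0.53 and 0.58) or replicate 3 with etoposide (0.58). GADD45G, on the plus strand at chr9:89605013-89606555, ranged from 0 to 11.1 normalized counts, and 3 counts in a library correspond to 2.30 to 6.37 normalized counts. Its highest library, HOM replicate 4 with etoposide, held 13 counts, and no difference in GADD45G was detectable at this depth.

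**Figure D3:**
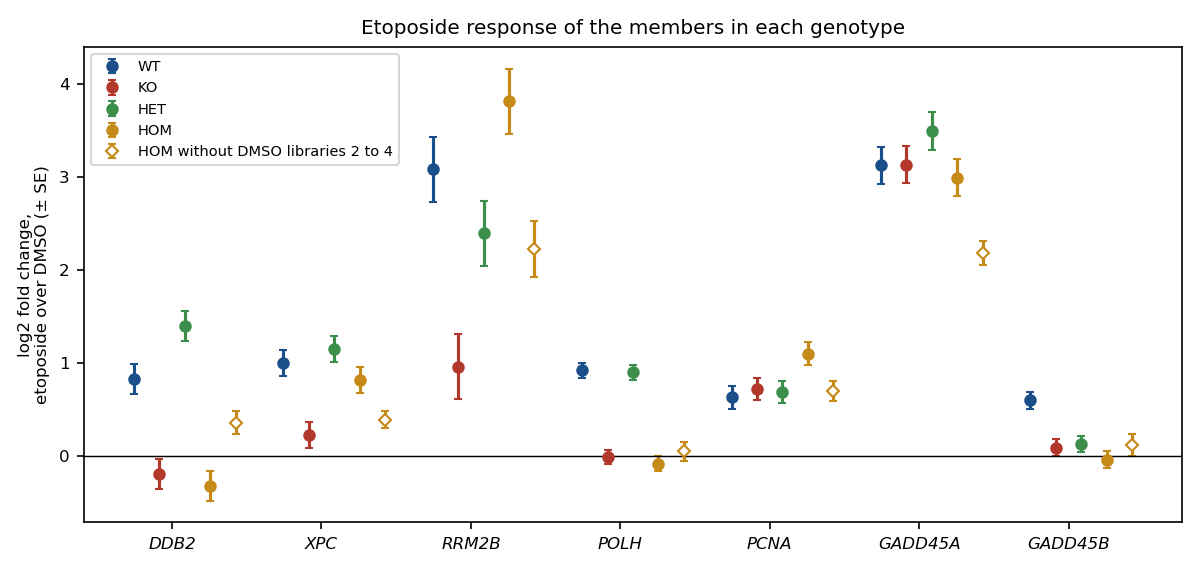
Log2 fold change of etoposide over DMSO (± SE of the limma fit, 4 libraries per group) for the 7 tested members in each genotype; open diamonds give HOM with only replicate 1 in DMSO. POLH stands near 0.9 in WT and HET and near 0 in KO and HOM, while GADD45A stands at 2.99 to 3.49 in the 4 genotypes with all libraries.

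With etoposide, the tested members followed genotype differently. PCNA passed in no genotype comparison, and GADD45B passed only as lower in HOM and HET than in KO. Against WT, 5 of 7 were lower in KO (DDB2, XPC, RRM2B, POLH and GADD45A), where 15% of all tested genes were lower. The log2 differences were -2.11 ± 0.16 for DDB2, -1.27 ± 0.14 for XPC, -2.46 ± 0.35 for RRM2B and -1.29 ± 0.08 for POLH (limma adjusted p = 7.85e-12, 1.95e-08, 1.66e-06 and 6.22e-14). These 5 were also lower in HOM than in WT, where 14.7% of genes were lower, with differences from -1.07 for XPC to -1.31 for DDB2. The HOM call of RRM2B (-1.08, limma adjusted p = 0.015) was lost with total-count scaling (-0.86). Between HET and WT no member passed in limma, where 23.3% of all genes passed in either direction. At an unadjusted p under 0.05 there were 3 (DDB2 -0.35, XPC 0.32 and GADD45B -0.53), of which GADD45B had the smallest limma adjusted p, 5.20e-05, below 1.5-fold.

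HOM was set against KO to compare cells that carry only mutant alleles with the null. DDB2 was 0.80 ± 0.16 and RRM2B 1.38 ± 0.35 higher in HOM with etoposide (limma adjusted p = 4.09e-04 and 0.0049), 2 of 7 members where 7.47% of genes were higher. GADD45B was lower (-0.59 ± 0.09; 4.67% of genes were lower), a call lost in 5 of 8 fits that left out 1 library (-0.58 to -0.56) and with total-count scaling (-0.44). XPC (0.20 ± 0.14) and POLH (0.16 ± 0.08) did not pass (limma adjusted p = 0.36 and 0.14). On a linear scale from the treated KO mean at 0% to the treated WT mean at 100%, the HOM mean lay at 35.9% for RRM2B, 22.5% for DDB2, 10.6% for XPC and 8.17% for POLH. The HET mean lay at 125%, 71.6%, 143% and 102% for the same genes. For GADD45A, HET lay at 99.4% and HOM at -47.2%, below KO. The GADD45A difference between HOM and KO did not pass (-0.50 ± 0.20 on the log2 scale, limma adjusted p = 0.082). Against KO, 5 members were higher in treated HET (15.7% of genes) and GADD45B was lower (14.9% of genes).

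**Figure D4:**
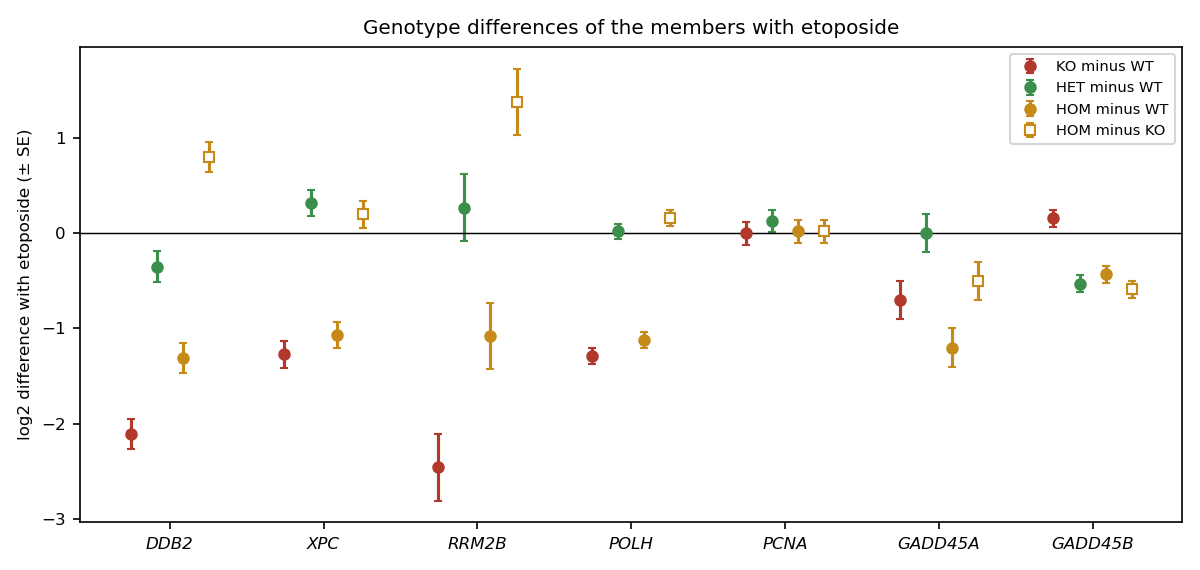
Log2 differences between genotypes with etoposide (± SE of the limma fit, 4 libraries per group) for the 7 tested members. DDB2, XPC, RRM2B, POLH and GADD45A lie below 0 in KO and HOM against WT, PCNA lies near 0 throughout, and only DDB2 and RRM2B lie clearly above 0 in HOM against KO.

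Without etoposide, 3 members differed between KO and WT and 2 between HET and WT. In KO against WT, DDB2 and GADD45A were lower (5.59% of genes) and GADD45B was higher (2.75%). In HET against WT, DDB2 was lower (16.4%) and RRM2B higher (16.1%). XPC, RRM2B and GADD45A were lower in HOM than in WT with all libraries (27.6%). Without replicates 2 to 4 of HOM in DMSO, DDB2 alone was lower, as given above (3.51%). HOM against KO in DMSO gave DDB2 higher (0.93; 22.6%) and RRM2B lower (-1.48; 28.6%). With replicate 1 alone these became 0.25 and 0.12, and neither passed. GADD45B then passed as lower in HOM (-0.62 ± 0.12, limma adjusted p = 8.63e-04), where 4.29% of genes were lower. HET against KO in DMSO gave XPC (0.67) and RRM2B (1.30) higher (15.9%) and GADD45B lower (-0.73; 16.9%).

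The size of the response itself was tested between genotypes. The response was smaller in KO than in WT for DDB2, XPC, RRM2B and POLH, 4 of 7 where 8.13% of genes were lower. The same 4 responded more in HET than in KO (7.94% of genes), although RRM2B (1.44 ± 0.50, limma adjusted p = 0.05 after rounding, just under the threshold) lost its call in 15 of 16 fits that left out 1 library. No member's response passed between HET and WT, where 4.75% of genes passed in either direction. At an unadjusted p under 0.05 there were 2, DDB2 and GADD45B (-0.48 ± 0.13, limma adjusted p = 0.026, below 1.5-fold). HOM responded less than WT for DDB2 (-1.15), POLH and GADD45B (-0.65) with all libraries (23.9%). With replicate 1 alone in DMSO, the members that responded less were XPC, POLH and GADD45A, where 9.48% of genes were lower. HOM responded more than KO for XPC (0.59) and RRM2B (24.4%), and neither passed with replicate 1 alone (0.16 and 1.26). GADD45A alone passed there, with a smaller response in HOM as given above (0.779% of genes were lower).

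The other genes of each pathway were taken from lists that do not include the members. Of 26 nucleotide excision repair genes tested, 4 rose and 2 fell with etoposide in WT (median log2 fold change -0.07, all genes 0.05); ERCC4, a nuclease subunit, rose by 0.75 ± 0.22, and RPA1, which coats single-stranded DNA, fell by 0.80 ± 0.08 (limma adjusted p = 0.0051 and 2.05e-09). Of 16 translesion and PCNA modification genes, 5 rose and 1 fell (median 0.08). For both lists, 20.1% of all tested genes rose and 14.9% fell in WT. REV3L, the catalytic subunit of polymerase zeta, rose by 1.34 ± 0.33 and MAD2L2, its partner, fell by 0.91 ± 0.17 (limma adjusted p = 0.0013 and 6.01e-05). In treated KO against treated WT, 3 excision repair genes were higher and 1 lower, and 6 translesion genes were higher and none lower. There 11.7% of all tested genes were higher and 15% lower. With total-count scaling 6 excision repair genes rose and none fell in WT, and with quantile normalization 3 translesion genes rose and 4 fell. List counts under these scalings, here and below, stand without the share of all genes called. Total-count scaling also moved the median gene upward in WT, as given at the end.

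PCNA rose in WT while most of its listed loaders and partners fell. Of 15 clamp loader and partner genes tested, 0 rose and 12 fell in WT (median log2 fold change -0.93), among them DTL, which directs PCNA-coupled protein degradation (-1.57 ± 0.08), and the maintenance methyltransferase DNMT1 (-1.28 ± 0.08; limma adjusted p = 4.02e-16 and 7.28e-14). Of all tested genes, 20.1% rose and 14.9% fell in WT. With total-count scaling 9 of the 15 fell. In KO 3 of the 15 rose and 2 fell (median 0.37), where 18.1% of all tested genes rose and 14.5% fell. With total-count scaling 7 rose and 1 fell in KO (median 0.67, all genes 0.35). FEN1, the flap endonuclease, rose by 0.93 ± 0.11 in KO (limma adjusted p = 1.05e-07). In treated KO against treated WT 13 of the 15 were higher and 1 lower, where 11.7% of all tested genes were higher and 15% lower. Of 15 deoxynucleotide supply genes, 1 rose and 7 fell in WT (median -0.49), with thymidine kinase TK1 at -1.60 ± 0.18 (limma adjusted p = 1.31e-08), and 2 rose and none fell in KO.

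**Figure D5:**
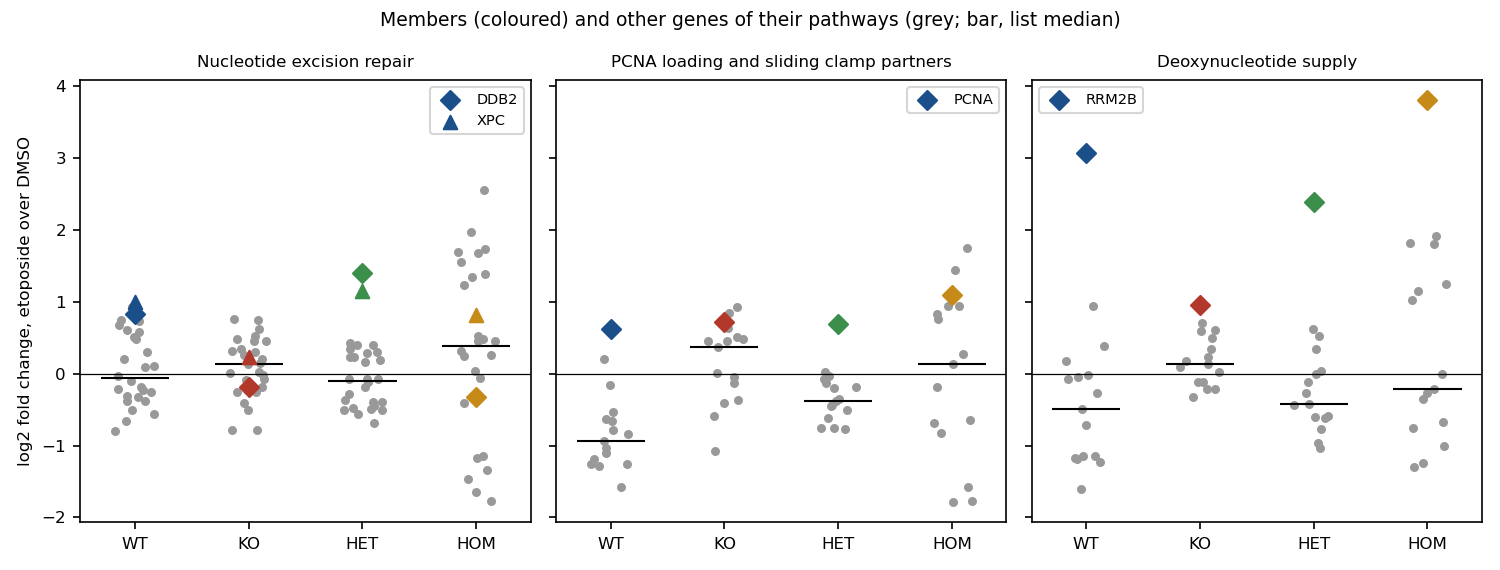
Log2 fold change of etoposide over DMSO in each genotype for members (coloured) and the other tested genes of 3 pathway lists (grey points; the bar is the list median without members). In WT the clamp partner median is -0.93 while PCNA is 0.63, and the deoxynucleotide supply median is -0.49 while RRM2B is 3.08.

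Among 14 GADD45 partners and stress MAP kinase genes, 3 rose and 5 fell in WT (median -0.31), and 2 rose and 4 fell in KO. Of all tested genes, 20.1% rose and 14.9% fell in WT, and 18.1% rose and 14.5% fell in KO. With total-count scaling 3 rose and 3 fell in WT, and 3 rose and 1 fell in KO. MAP2K3, a kinase upstream of p38, rose by 1.30 ± 0.09 in WT, and MAP2K6, another, fell by 4.67 ± 0.26 in WT and 3.08 ± 0.26 in KO (limma adjusted p = 1.26e-12, 4.98e-15 and 6.63e-11). TDG, the thymine glycosylase that works with GADD45A in DNA demethylation, rose by 0.90 ± 0.16 in WT and 1.09 ± 0.16 in KO (limma adjusted p = 3.31e-05 and 2.67e-06). For comparison, of 19 tested p53 targets outside repair, 18 rose in WT (median 2.01), and 8 rose and 1 fell in KO (median 0.43). All 19 were lower in treated KO than in treated WT, where 15% of all tested genes were lower. With total-count scaling that last count was 18.

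Across the 32 libraries, the members correlated to different degrees. Pearson's r of log2 levels was 0.94 between PCNA and GADD45A, 0.91 between XPC and RRM2B, 0.88 between RRM2B and PCNA, 0.86 between RRM2B and GADD45A, 0.85 between XPC and POLH and 0.84 between DDB2 and POLH. It was 0.57 between DDB2 and XPC and 0.15 between DDB2 and PCNA. GADD45B had r from -0.21 to 0.21 with the other 6. Without replicates 2 to 4 of HOM in DMSO, r was 0.97 between XPC and POLH, 0.84 between DDB2 and XPC and 0.39 between DDB2 and PCNA, and that of GADD45B with the others ran from -0.24 to 0.24. These points share treatment and genotype, so the values only describe the set. Among 12690 other genes with a mean of at least 50, DDB2 was most like BAX (r = 0.948), APOBEC3C and PHLDA3, and XPC most like FBXW7 (0.971), ANTXR2 and ZMAT3. RRM2B was most like CPEB4 (0.988), MDM2 and TENT5A, and POLH most like TNFRSF10B (0.959), MYLK and TREM2. PCNA was most like GBP3 (0.984), FASTKD5 and UTP25, and GADD45A most like IL7R (0.985), AREG and ZNF697. GADD45B's closest gene was TRIM29 (0.920), followed by DNAJB2 and TMEM184A at 0.858 and 0.840. Without replicates 2 to 4 of HOM in DMSO, 11 of these 21 genes were still among the 3 closest to their member.

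The authors' deposited tables, which cover 6 contrasts, gave the same sign as limma for all 42 pairs of a tested member and a contrast. The same 21 pairs passed both thresholds in both, and the log2 fold changes differed by at most 0.45.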

How the data were processed

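Per the submitters' processing notes, the authors quantified reads with kallisto on GRCh38 (hg38) and used DESeq2; versions: not given in the sources used here. Per the file headers and values, the deposited matrix holds variance-stabilized log2 values for 35587 symbols, with a floor at 4.43. The authors' deposited tables for 6 contrasts give a mean normalized signal, log2 fold changes, test scores and p-values, raw and adjusted. The variance-stabilizing transform was undone, giving normalized counts whose gene means matched the mean signal in the deposited tables to a relative 4.49e-14, and 100% of the values were whole reads within 0.01 once the scaling was undone. The 16824 genes that reached 10 normalized counts in 4 or more libraries entered 1 limma fit (version 3.58.1, R 4.3.3, trend) of log2(normalized count + 1) with 8 group means and 19 contrasts, tested two-sided with Benjamini-Hochberg adjustment over all genes of each contrast. Fold changes are on that scale, and each gene has 1 spread pooled over all groups. The fit was tested on simulated data, in which genes changed only in WT with etoposide and the spread was set alike for all genes. The simulation held no deviating HOM DMSO libraries, so it cannot speak to results that rest on them. Gene positions are from GENCODE release 29.

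The level of the edited gene is not reported here. All members are named. Of each pathway list, named genes are among the 2 largest rises and falls that passed in a contrast; the responses of RRM2, the counterpart of RRM2B, were added after its values were seen. The 3 most correlated genes are named for each member. The correlations without HOM DMSO replicates 2 to 4 were added after seeing the data. The members and lists were chosen with earlier results of these data known. Replicate numbers do not pair the plates: deviations from group means correlated at 0.01 on average between same-numbered libraries (-0.20 to 0.36). Alternatives were another pseudocount, no filter, 2 other scalings, the deposited scale, array weights, the compared groups alone, a replicate block, each library left out, and the HOM DMSO libraries left out.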

Additional observations from a re-analysis of the deposited data

Results flagged for a closer look

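In 6 of 56 sets of 4 libraries, 1 library lay far from the other 3 (a gap past Dixon's 95% critical value, which chance gives in about 1 in 20 sets). DDB2 was low in WT DMSO replicate 2 (1618 normalized counts) and high in HET DMSO replicate 3 (1150). RRM2B was low in HET replicate 3 with etoposide (3256), and PCNA was high in HET DMSO replicate 2 (3841). POLH was low in KO replicate 1 with both treatments, at 462 normalized counts with DMSO and 409 with etoposide.

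Between genotypes, 13 of 35 tested response differences passed. Of all tested genes, 8.13% had a lower response in KO than in WT and 7.94% a higher one in HET than in KO. For HOM, 23.9% were lower than in WT and 24.4% higher than in KO. The KO response was below the WT response for DDB2 (-1.02), XPC (-0.77), RRM2B (-2.13) and POLH (-0.93), and below the HET response for the same genes, by 1.59, 0.92, 1.44 and 0.91 in HET minus KO. The HOM response was below the WT response for DDB2 (-1.15), POLH (-0.99) and GADD45B (-0.65), and above the KO response for XPC (0.59) and RRM2B (2.86). Of the HOM differences, POLH alone was also called with only replicate 1 of HOM in DMSO. This POLH call was lost with total-count scaling.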

How the results depend on the processing

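Changes of sign were counted where a value passed in either setting. The replicate block changed no member's call: all 7 passed for the WT response and 3 for the KO response, and plate numbers pair no libraries, with 5 of 32 correlating best with their own number. Leaving 1 library out gave 1 to 2 called members for HET against WT in DMSO, 2 to 5 for the HOM against WT response and 1 to 2 for HOM against KO. Total-count scaling called 7 members in the HOM response, 6 and 5 for HOM against WT and KO in DMSO, 4 for the HOM against KO response and 2 for HET against KO. Member counts in this paragraph stand without the share of all genes called under each setting, except where genes called are given. Total-count scaling also moved the median gene, as given below. It reversed the HOM response of DDB2 (0.69), GADD45B (0.97) and POLH (0.93), and the response differences of GADD45B for HOM against WT (0.14) and POLH for HOM against KO (0.64). It moved the median gene by 0.97 in the HOM response, by 0.22, 0.30 and 0.19 in WT, KO and HET, and by -0.51 in HOM against WT in DMSO. The share of calls that were higher went from 56.6% to 91.3% in the HOM response, from 57.5% to 74.7% in WT, from 55.4% to 80.2% in KO and from 57.8% to 74.8% in HET; no filter gave 68.5% in HET. Fits of the compared groups alone called 0 and 1 members for HOM against WT and KO in DMSO and 1 for the HOM against KO response. Genes called for HOM against WT in DMSO went from 8012 to 1159. Without HOM DMSO replicates 2 to 4, 1 member was called in each of these, RRM2B for HOM against KO in DMSO turned to 0.12, and genes called went from 8012 to 764 for HOM against WT in DMSO and from 11044 to 6431 in the HOM response. For the HOM against KO response, a pseudocount of 5, the deposited scale and array weights each called 1. Quantile normalization called 2 members and array weights 1 for the HET against WT response, where array weights took the genes called from 799 to 1730. The deposited scale took KO against WT in DMSO from 1404 to 879. Leaving all HOM DMSO libraries out of the fit, chosen after seeing the data, changed no member's call in the 14 contrasts without them, but called 1356 genes for the HET against WT response. The causes were not tested. Among the members, low counts kept only GADD45G out of the test. In HOM with DMSO, RRM2B rested on 434 recovered counts and GADD45A on 366, summed over the libraries of that group.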
